A study of Mus musculus with 14 samples.

Results

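Of the 41934 genes in the deposited tables of the fetal mouse brain, 9 genes of the oligodendrocyte lineage and of myelin are described here: Olig1, Olig2, Sox10, Pdgfra, Cspg4, Gpr17, Nkx2-2, Mbp and Cnp. They were chosen by their symbols, and each symbol matched 1 row of the table of each age. The libraries came from whole brains of 14 individual male fetuses on a C57BL/6J background. At E13.5 there were 4 Dio3+/+ and 2 Dio3-/- fetuses, and at E18.5 there were 3 Dio3+/+ and 5 Dio3-/- fetuses, all littermates from matings of heterozygous mice. Dio3 encodes the type 3 deiodinase, the enzyme that clears thyroid hormone, and the mutant allele carries point mutations that inactivate the enzyme while its mRNA is still made. The mean Dio3 level was 99.0 at E13.5 and 129 at E18.5, and because the mutant mRNA is retained this level does not check the genotype labels. By qPCR of wild-type brains alone, the paper reports a fall in Dio3 between these ages. It also reports higher Dio3 mRNA in Dio3-/- than in Dio3+/+ brains at both ages. The means here pool genotypes in different proportions, so that age and genotype cannot be told apart in them.

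Each table holds 1 measure of level per gene, the authors' mean normalized count, which is averaged over all libraries of an age. Dio3+/+ and Dio3-/- brains are pooled in that mean, with mutants forming 33.3% of the libraries at E13.5 and 62.5% at E18.5. The difference between genotypes was therefore not analysed here, and the levels below describe the pooled brains of each age. No value of a single library enters, so the means have no SD and the depth of each library is unknown. The means summed to 28582629 over all genes at E13.5 and to 24565726 at E18.5, and a mean above 0 was given for 31372 and 32498 genes.

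Oligodendrocytes are the cells that wrap axons of the brain in myelin. Their precursors are born from the ventral neural tube and ventral forebrain under Sonic hedgehog, and later from more dorsal zones, and they divide in response to platelet-derived growth factor before they leave the cell cycle and differentiate. Myelination of the mouse brain takes place mainly after birth, and thyroid hormone is a known regulator of the step from precursor to myelinating cell.

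All 9 genes had a mean above 10 at E13.5, and most had higher levels at E18.5. Because the tables were normalized separately, each ratio between ages was divided by the median ratio of 0.821 over the 17794 genes with a mean of at least 10 at both ages. On that scale 8 of the 9 genes were higher at E18.5, and 7 of them by at least 2-fold. Among all genes with a mean of at least 10 at both ages, 12.1% were at least 2-fold higher at E18.5 and 5.61% were at least 2-fold lower. The median ratio was 2.13 for the 9 genes, against 1.00 by construction for all genes. Means, and sums of means, are given as deposited throughout, without this division. No test was made, since the means carry no spread between fetuses and the mix of genotypes differs between the ages. In whole brain, more cells of the lineage and more RNA per cell cannot be told apart.

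Several genes lay close to the 2-fold limit, so that their number depended on the scaling. Olig2 (2.06) and Pdgfra (2.07) were the genes just above it, and Mbp (1.67) was the next below. With each table scaled to its total, 5 genes reached 2-fold, against 11.1% of all genes. With the means as deposited 3 did, namely Olig1, Gpr17 and Sox10, against 8.4% of all genes. The direction of all 9 genes was the same under each of the 6 other scalings. Each of these multiplies all ratios by 1 factor, between 0.821 and 1.02, which is too near 1 to turn any of them. Over all genes, 2160 were at least 2-fold higher and 998 at least 2-fold lower, whereas with the means as deposited these numbers were 1494 and 1802.

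**Figure D1:**
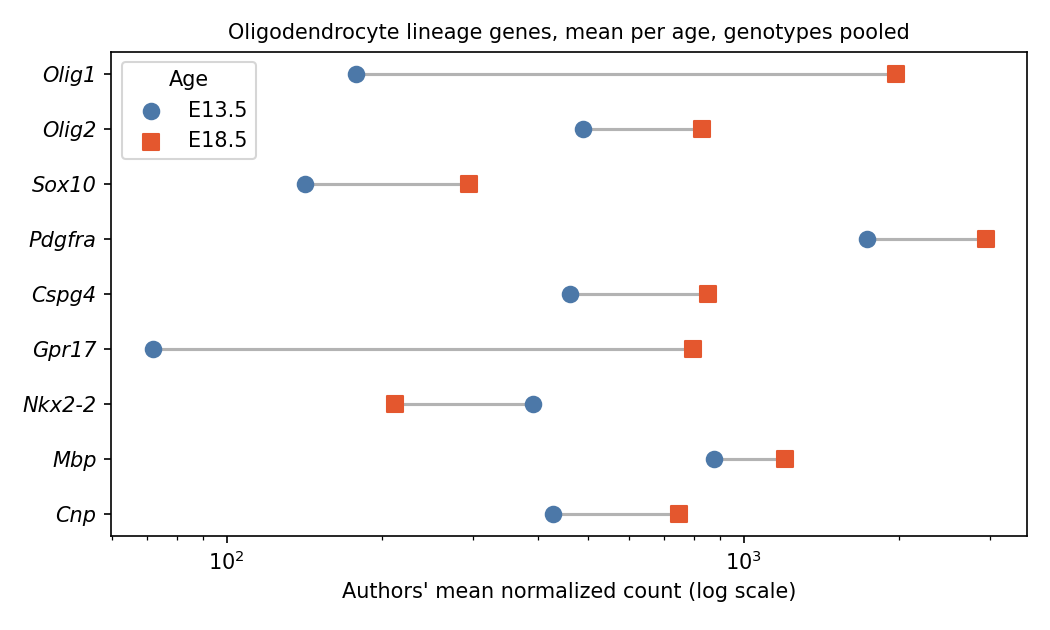
Mean normalized count of each of the 9 genes on a log scale, with a circle for E13.5, a square for E18.5 and a line joining them; each point is the authors' mean over the libraries of the age, without an error, and the ages are shown as deposited. The widest gaps are those of Olig1 (178 and 1974) and Gpr17 (71.9 and 797), and only Nkx2-2 has its square to the left of its circle.

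Olig1 and Olig2 encode paired basic helix-loop-helix transcription factors. Olig2 is needed to specify oligodendrocyte precursors and motor neurons, and Olig1 acts mainly in later differentiation. The genes are neighbours on chromosome 16 of GRCm38, on the plus strand. Olig2 spans 91225457 to 91228677, Olig1 spans 91269772 to 91271933, and 41.1 kb lie between them.

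The mean level of Olig1 was 178 at E13.5 and 1974 at E18.5, a ratio of 13.52 after scaling. Only 35 of the 17794 genes had a higher ratio. The mean level of Olig2 was 489 at E13.5 and 829 at E18.5, a ratio of 2.06. Thus the neighbouring genes differed in how their levels compared between the ages.

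Within a single table the relation of both genes does not depend on the scaling between tables. Per kilobase of exon, Olig1 stood at 82.2 and Olig2 at 193 normalized counts at E13.5, so that Olig2 was 2.35 times the higher. At E18.5 Olig1 stood at 913 and Olig2 at 328 normalized counts per kilobase, and Olig1 was now 2.79 times the higher. The Olig1 to Olig2 ratio was therefore 6.56 times larger at E18.5. Both genes have 1 annotated transcript, so the choice of transcript does not enter their lengths. Olig1 shares 157 of its 2162 exon bases with Gm15966 on the other strand, which had means of only 1.20 and 0.98.

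Sox10 encodes the transcription factor that maintains the lineage and activates myelin genes. It lies on the minus strand of chromosome 15 from 79154908 to 79165240, and its exons overlap those of no other gene. Its mean was 142 at E13.5 and 294 at E18.5, a ratio of 2.52. Neural crest and Schwann cells also express Sox10. Of 8 markers of those cells, the defining factor Foxd3 was at 0 at both ages, and Egr2, a factor of myelinating Schwann cells, had means of 0.57 and 0.25. Of the 5 markers with a mean of at least 10 at both ages, none differed by 2-fold between the ages, with ratios from 0.55 to 1.47 and a median of 1.08. Summed over the 8 markers, the mean as deposited, without scaling, was 652 at E13.5 and 656 at E18.5, a sum of genes with opposite directions. The most abundant marker had means of 416 and 504, whereas Erbb3, a neuregulin receptor, had means of 170 and 76.4.

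Nkx2-2 encodes a homeodomain factor of the ventral neural tube, which hedgehog signalling induces and which is used again when precursors differentiate. The gene lies on the minus strand of chromosome 2 from 147177546 to 147194243. It was the only one of the 9 genes with a lower level at E18.5, with means of 391 at E13.5 and 211 at E18.5 and a ratio of 0.66, or 1.52-fold lower. This ratio lay at percentile 13.4 of all ratios, and was 0.54 with the means as deposited. Per kilobase, Nkx2-2 ranked 3 among the 9 genes at E13.5 with 136 normalized counts and 8 at E18.5 with 73.5. With the mean transcript length in place of merged exons the values were 402 and 217, with ranks of 3 and 6. Olig2 stood above Nkx2-2 at both ages by merged exons, but below it at E13.5 by mean transcript length (193 against 402). Whichever length is used, the Nkx2-2 to Olig2 ratio at E18.5 was 0.319 times that at E13.5. Nkx2-2 shares 9.67% of its exon bases with the antisense gene Nkx2-2os, whose means were 0.95 and 4.43.

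Pdgfra and Cspg4 mark precursors. Pdgfra encodes the receptor for the growth factor that keeps precursors dividing, and Cspg4 encodes the proteoglycan NG2 on their surface. Pdgfra lies on chromosome 5 from 75152292 to 75198215 and Cspg4 on chromosome 9 from 56865033 to 56899870, both on the plus strand. The mean of Pdgfra was 1729 at E13.5 and 2942 at E18.5, a ratio of 2.07. For Cspg4 the means were 461 and 851, a ratio of 2.25.

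Both genes are also used outside the lineage, Pdgfra in mesenchyme and Cspg4 in pericytes. Among 8 mesenchyme markers none was at least 2-fold higher at E18.5 and 3 were at least 2-fold lower, with a median ratio of 0.61. Col1a1, a collagen of connective tissue, had means of 10660 and 4986, and Twist1, a mesenchymal transcription factor, had means of 243 and 34.0. The largest ratios were those of Dcn, with means of 923 and 1036 (1.37), and Postn, with means of 778 and 615 (0.96). Dcn was the only 1 of the 8 with a ratio above 1. Among 6 pericyte markers 2 were at least 2-fold higher and none lower by that much, with a median ratio of 1.22. Pdgfrb, the receptor that marks pericytes, had means of 1685 and 1092. Rgs5, a regulator of G protein signalling abundant in pericytes, had means of 1827 and 4136. The Pdgfra to Pdgfrb ratio at E18.5 was 2.63 times that at E13.5, and the Cspg4 to Pdgfrb ratio 2.85 times, whichever gene lengths are used. Pdgfrb had the smallest ratio between ages of the 6 pericyte markers (0.79). Rgs5 had the largest (2.76), above those of Pdgfra (2.07) and Cspg4 (2.25). The part of mesenchyme and pericytes in the levels of Pdgfra and Cspg4 was not tested.

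Gpr17 encodes a receptor that marks precursors committed to differentiate and is lost again in mature oligodendrocytes. It lies on the minus strand of chromosome 18 from 31942997 to 31949636. Its mean of 71.9 was the lowest of the 9 genes at E13.5, also per kilobase, with 13.9 normalized counts. At E18.5 its mean was 797, a ratio of 13.49, and only 36 genes had a higher one. Per kilobase it then stood at 153 normalized counts, which ranked 5 among the 9 genes by merged exons, 6 by the longest transcript and 9 by mean transcript length. Pdgfra stood above Gpr17 per kilobase at both ages with each of these lengths. The Gpr17 to Pdgfra ratio at E18.5 was 6.51 times that at E13.5, whichever length is used. Gpr17 shares 3.62% of its exon bases with Lims2 on the other strand, which had means of 35.8 and 84.8.

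Mbp and Cnp encode the myelin basic protein, which compacts the myelin sheath, and a phosphodiesterase of the cytoplasmic channels in myelin. Mbp also gives rise to longer golli transcripts, which neurons and immune cells make, and a count per gene does not separate them. Mbp lies on chromosome 18 from 82475146 to 82585637 with 16 annotated transcripts, and Cnp on chromosome 11 from 100574904 to 100591729, both on the plus strand. The mean of Mbp was 876 at E13.5 and 1202 at E18.5, a ratio of 1.67, the smallest among the 8 genes that were higher at E18.5. For Cnp the means were 429 and 752, a ratio of 2.13. Cnp shares 154 of its exon bases with Dnajc7 on the other strand, which had means of 3387 and 2752. The authors counted with the default union setting, which gives a read over exons of both genes to neither. The effect of the shared bases on the level of Cnp was not tested.

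**Figure D2:**
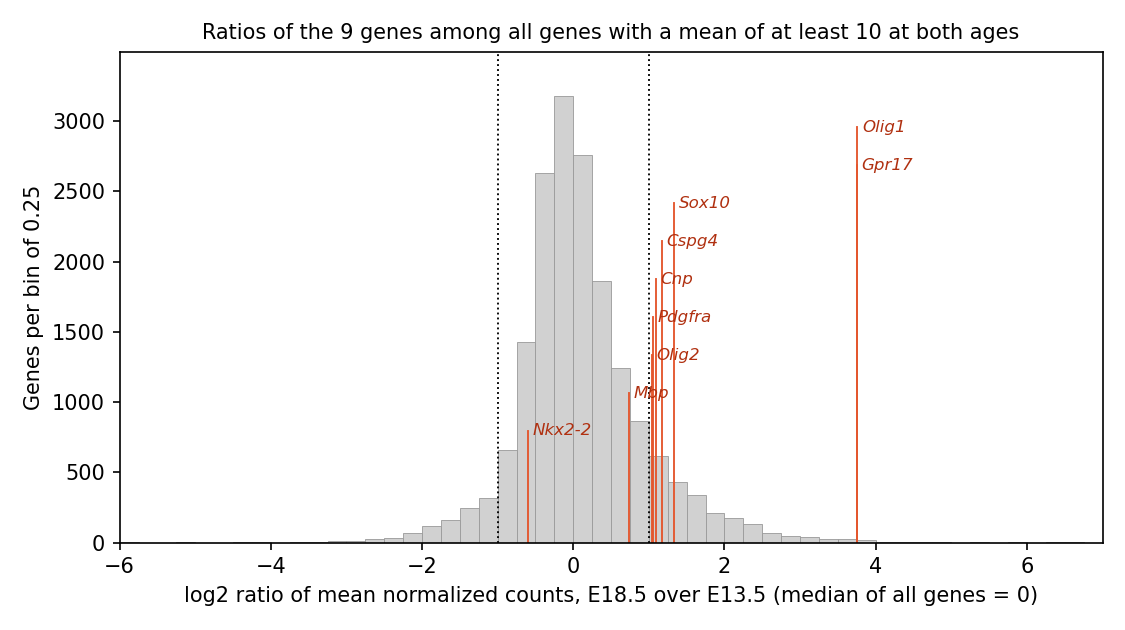
Histogram of the log2 ratio of mean normalized counts, E18.5 over E13.5, for the 17794 genes with a mean of at least 10 at both ages, centred on their median; red lines mark the 9 genes (their heights only separate the names) and dotted lines mark 2-fold. Olig1 and Gpr17 lie almost together at 3.76 and 3.75, 5 genes lie between 1.04 and 1.34, Mbp lies at 0.74 and Nkx2-2 at -0.60.

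RefSeq promoter sequences of GRCm38.p6 were matched for 5 of the 9 genes: Olig2, Pdgfra, Cspg4, Nkx2-2 and Cnp. Those of Olig2, as the lineage-specifying factor, Cnp, as a myelin gene with a higher level at E18.5, and Nkx2-2, as the gene with a lower level, are shown 5′ to 3′ on the strand of the gene. Each run ends where an annotated exon begins. Capitals mark the words CANNTG (the E-box bound by helix-loop-helix factors such as Olig2) and ACAAAG or ACAATG (words bound by Sox factors), searched on both strands.

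Olig2, chr16:91225300-91225456, plus strand: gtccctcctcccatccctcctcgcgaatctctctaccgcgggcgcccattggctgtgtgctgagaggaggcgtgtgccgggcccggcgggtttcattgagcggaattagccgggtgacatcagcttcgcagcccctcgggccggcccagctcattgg

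Cnp, chr11:100574689-100574903, plus strand: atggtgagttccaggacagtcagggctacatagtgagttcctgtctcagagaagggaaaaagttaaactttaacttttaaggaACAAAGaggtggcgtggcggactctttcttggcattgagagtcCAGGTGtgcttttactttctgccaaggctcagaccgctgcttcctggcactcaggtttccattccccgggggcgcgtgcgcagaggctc

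Nkx2-2, chr2:147186456-147186652, minus strand: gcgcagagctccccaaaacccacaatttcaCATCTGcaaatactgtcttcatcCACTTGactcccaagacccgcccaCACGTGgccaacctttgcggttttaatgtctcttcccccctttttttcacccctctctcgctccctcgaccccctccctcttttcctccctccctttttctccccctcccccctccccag

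In the 250 bases before each RefSeq start, 3 of the 5 genes held an E-box, against 66.2% of 32851 promoters in the table. Nkx2-2 held 3 of them, but the RefSeq start used for it lies 7841 bases inside the annotated gene. The bases shown for Nkx2-2 therefore lie between annotated exons of the gene and not before its first exon. The word ACAAAG was found in 1 gene, Cnp, against 16.5% of all promoters. ACAATG was found in 1 gene, Olig2, 63 to 68 bases before the start and within its annotated exon, against 10.7% of all promoters. The thyroid hormone receptor half-site AGGTCA was in none of the 5 windows, against 14.0% of all promoters. These matches are a description of the letters in the windows.

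The order of the 9 genes differed between the ages when levels were set per kilobase of merged exons. At E13.5 the order ran from Olig2 (193) over Pdgfra (172), Nkx2-2 (136), Cnp (118), Mbp (103), Olig1 (82.2), Sox10 (46.5) and Cspg4 (38.6) to Gpr17 (13.9). At E18.5 the order ran from Olig1 (913) over Olig2 (328), Pdgfra (294), Cnp (206), Gpr17 (153), Mbp (142), Sox10 (96.3) and Nkx2-2 (73.5) to Cspg4 (71.4). No error is known for these orders, and they depended on the length used. At E13.5 Pdgfra came first with both other lengths, at 253 by the longest transcript and 630 by mean transcript length, and Olig2 ranked 2 and 5. At E18.5 Olig1 stayed first by the longest transcript, while by mean transcript length Pdgfra came before it with 1072 against 913. Olig1 ranked 6, 6 and 7 at E13.5 and 1, 1 and 2 at E18.5 by merged exons, the longest transcript and mean transcript length.

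**Figure D3:**
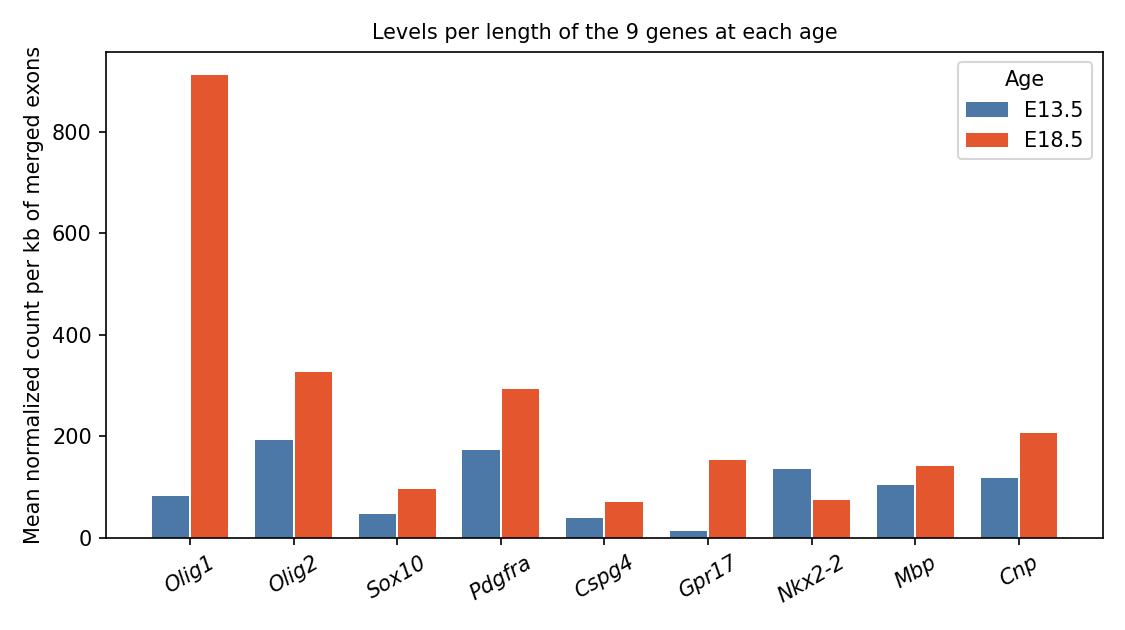
Bars give the mean normalized count per kilobase of merged exons for the 9 genes at E13.5 (blue) and E18.5 (orange), without errors, since the means pool all libraries of an age. Olig1 stands at 82.2 and 913, and Nkx2-2 is the only gene whose blue bar is the taller, with 136 and 73.5.

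Other genes of the lineage were described from lists of precursor, differentiation and myelin genes. Of 13 other precursor genes with a mean of at least 10 at both ages, 7 were at least 2-fold higher at E18.5 and 2 at least 2-fold lower, and the median ratio was 2.58. Bcan, which encodes the matrix proteoglycan brevican, had means of 246 and 1952. Lhfpl3, which encodes a membrane protein, had means of 129 and 874. Ptprz1, a receptor phosphatase shared with radial glia, had means of 9043 and 20310. Vcan, the proteoglycan versican, had means of 16010 and 8864. Many of these genes are shared with radial glia or astrocytes. Neu4 was listed at 0 at E13.5 and at 6.00 at E18.5.

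Among 11 differentiation genes, 3 were at least 2-fold higher and 2 at least 2-fold lower, with a median ratio of 1.07 that became 0.88 with the means as deposited. Gal3st1, the enzyme that makes sulfatide for myelin, had means of 29.1 and 101, and Zfp488, a nuclear factor of the lineage, had means of 37.6 and 78.2. Nkx6-2, a homeodomain factor of ventral progenitors and later of myelin, had means of 190 and 40.8, a ratio of 0.26. The most abundant genes of the list, Tcf7l2 (11330 and 8202), a Wnt effector, and Cemip2 (8573 and 2168), a hyaluronidase of the cell surface, were lower at E18.5. The part of cells outside the lineage in the whole-brain levels of these genes was not tested.

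Of 12 other myelin genes, 8 had a mean of at least 10 at both ages. All 8 were higher at E18.5, 2 of them at least 2-fold, with a median ratio of 1.79. Mag, an adhesion molecule of the inner myelin layer, had means of 19.5 and 65.2. Tspan2, a tetraspanin of the lineage, had means of 447 and 766. Cldn11, the claudin of myelin tight junctions, had means of 534 and 688, and Ermn, a cytoskeletal protein of late myelination, had means of 35.7 and 41.2. The remaining 4 genes had means under 10 at E13.5 and between 0.37 and 34.4 at E18.5. Mobp, a basic protein of myelin, had means of 5.56 and 23.2, and Opalin, a protein of mature oligodendrocytes, was the lowest with means of 0.73 and 0.37. The summed level of the 12 genes, as deposited, was 1680 at E13.5 and 2531 at E18.5.

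Genes that specify or expand precursors mostly had lower levels at E18.5. Of 20 such genes, which encode signals, receptors and transcription factors, 8 were at least 2-fold lower and 2 at least 2-fold higher. Their median ratio was 0.61. Nkx6-1, a homeodomain factor of the ventral progenitor domains, had means of 826 and 108, a ratio of 0.16. Ptch1, the hedgehog receptor, had means of 5553 and 3080, and Igf1r, the receptor for insulin-like growth factor 1, had means of 13620 and 7390. The 2 genes at least 2-fold higher encode growth factors: Pdgfa, the ligand of the Pdgfra receptor, with means of 257 and 639, and Igf1 with means of 656 and 1151. Pdgfa shares 26.1% of its exon bases with another gene.

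Of 12 genes known to hold back differentiation, 2 were at least 2-fold higher and 4 at least 2-fold lower, with a median ratio of 0.77. Id2, an inhibitor of helix-loop-helix factors, had means of 1462 and 3215, and Lingo1, a neuronal membrane protein, had means of 2683 and 4711. Jag1, a Notch ligand, had means of 2477 and 736. Sox11, a factor of immature neurons, and Id4 had the highest means of the list at E18.5, 53560 and 6833, against 119200 and 9638 at E13.5.

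Of 10 genes of thyroid hormone action, 6 were at least 2-fold higher at E18.5 and 1 at least 2-fold lower, with a median ratio of 3.77. Dio2, the deiodinase that activates thyroid hormone, had means of 14.4 and 375, a ratio of 31.8. Klf9, a T3-responsive transcription factor, had means of 140 and 1153, a ratio of 10.1. Thra, the main receptor of the fetal brain, had means of 8696 and 15800. Rxra, a partner of the thyroid hormone receptor, had means of 1421 and 558. Klf9 and Dio2 are themselves responsive to thyroid hormone, and the larger share of Dio3-/- libraries at E18.5 cannot be told apart from age in these means. In qPCR of wild-type brains alone, the paper reports that both genes rise between these ages. For Dio3-/- brains at E18.5 it reports higher Klf9 and modestly lower Dio2. The part of genotype in the pooled means was not tested.

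Markers of other cell types gave the measure of the whole tissue. Of 7 astrocyte markers with a mean of at least 10 at both ages, 5 were at least 2-fold higher at E18.5, with a median ratio of 2.79 and the highest ratio, 27.7, for the water channel gene Aqp4. Of 8 neuron markers, 3 were at least 2-fold higher, with a median ratio of 1.64. Snap25, a gene of the synaptic release machinery, had means of 2107 and 5543, a ratio of 3.20. Tubb3, a neuronal tubulin, had means of 37120 and 29680, a ratio of 0.97 after scaling. The median ratio was 1.29 for 6 microglia markers and 1.17 for 6 endothelium markers, with 1 gene at least 2-fold higher in each, C1qa and Flt1. With the means as deposited, this number was 0 in each. Higher levels at E18.5 were thus not limited to the oligodendrocyte lineage, and whether the 9 genes differ from the astrocyte markers was not tested. As deposited, the means of the 9 genes summed to 4766 normalized counts at E13.5 and 9852 at E18.5, and those of the 8 astrocyte markers to 21770 and 28640. The astrocyte sums are weighted by abundant genes such as Slc1a2 (12870 and 10170), the only 1 of the 7 markers with a ratio below 1. They therefore do not follow the median ratio of 2.79.

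**Figure D4:**
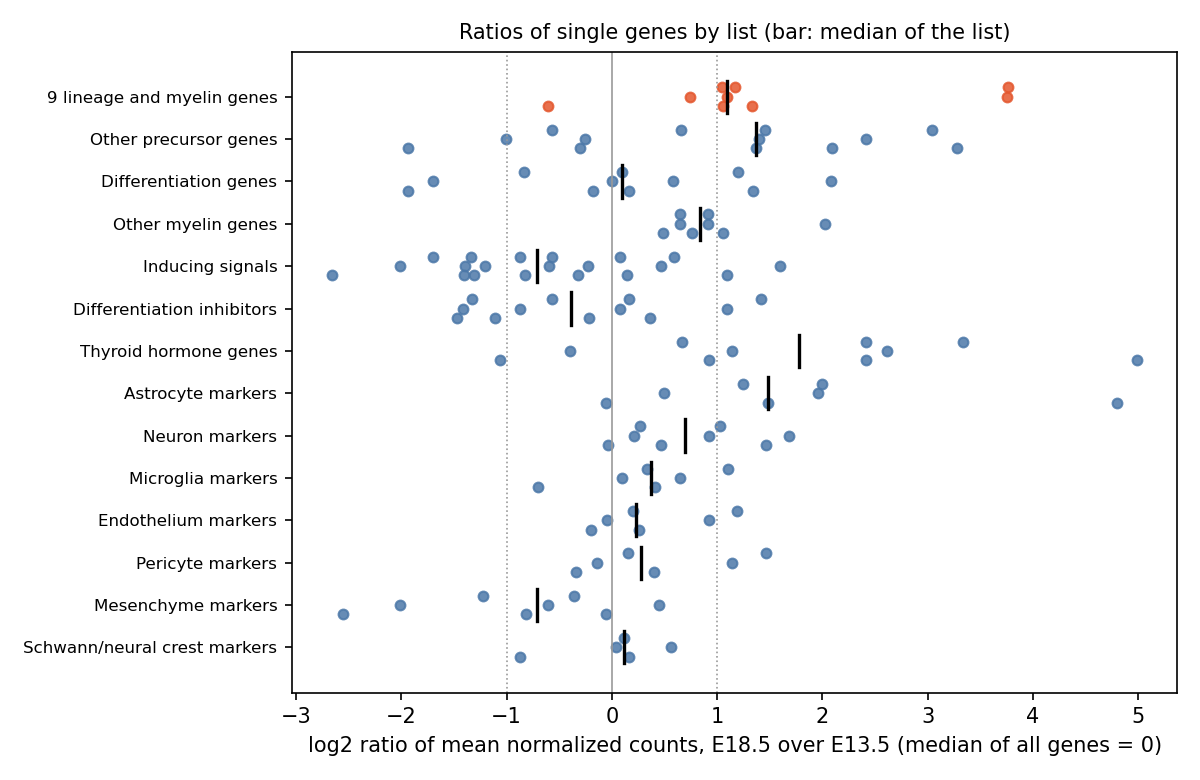
Each point is the log2 ratio of the mean normalized counts of 1 gene, E18.5 over E13.5, for genes with a mean of at least 10 at both ages, grouped by list; black bars are list medians, dotted lines mark 2-fold and 0 is the median of all genes. The 9 genes (orange) have a median ratio of 2.13, and the medians of the inducing signals (0.61) and mesenchyme markers (0.61) lie to the left of 0.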

How the data were processed

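Reads of whole-brain RNA from 14 male fetuses were trimmed by the authors with cutadapt 3.1 and aligned to GRCm38 with STAR 2.5.3a. They removed ribosomal and transfer RNA with bedtools 2.26.0 and counted the rest per gene with HTSeq, without regard to strand, adjusted the counts between sequencing batches with ComBat-seq and normalized them within each age with DESeq2 1.30.1. Versions are as in the submitters' processing notes. The batches used different library kits, the labels do not give each library's batch, and its part in the levels was not tested. The authors' mean normalized count of each gene and age is the signal used here. The other deposited columns hold the authors' own comparison of genotypes (fold changes, their errors and p-values) and were not used. The design had named a count test for genotype, which needs values per library.

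Levels were divided by merged exon length from GENCODE M21 (GRCm38, 41897 genes matched by identifier, 37 not), 1 release before the authors' annotation. Ratios between ages were divided by the median ratio over genes with a mean of at least 10 at both ages, without a test (Python 3.11.15, pandas 2.3.3). The code was tested on simulated data. The members and lists were chosen with earlier results of these data known. In the other lists, the genes named were the 2 with the highest mean at E18.5, the 2 with the largest ratio and the 1 with the smallest ratio. Markers listed at or near 0, Neu4, Opalin, Mobp, Gfap and Mog were named after their values were seen, and some genes that the rule selects are given only in counts or are not reported here. The pairs of genes compared per kilobase were also chosen after their values were seen. 1 listed gene, Tmem2, appears in the tables as Cemip2.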

Additional observations from a re-analysis of the deposited data

How the results depend on the processing

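No paired analysis was possible because the tables hold means over libraries and no result comes from a test. Each of the 6 other scalings multiplied all 9 ratios by 1 factor, between 0.821 and 1.02, so the 54 ratios are not separate checks. Of the 54, 45 stayed within 1.1 times the reported value, 9 moved by more and 0 turned direction. Factors of that size could not have carried any of the 9 ratios across 1. The 9 that moved were those with the means as deposited. That setting puts the median of the 9 genes at 1.75 and the number at least 2-fold higher at 3, against 8.4% of all genes. It raises the genes at least 2-fold lower from 998 to 1802. With a limit of 3-fold, 2 of the genes (Olig1 and Gpr17) passed, and with 1.5-fold 8 did. The shares of all genes at these limits were not counted. The upper quartile of all ratios was 1.39, and Mbp (1.67), the lowest of the 8, lay at percentile 82.7. Under the other scalings the median lay between 2.02 and 2.17. Levels per kilobase moved by more than 1.1 times in 22 of 36 values with other transcript lengths. Counts of other lists also changed with the means as deposited. Those at least 2-fold higher became 4 of 7 astrocyte, 2 of 8 neuron and 1 of 6 pericyte markers. They became 1 of 8 other myelin genes, 1 of 20 genes that specify or expand precursors and 1 of 12 that hold back differentiation. Of those 20 genes 10 were at least 2-fold lower, and of those 12 genes 5 were. The 13 other precursor genes kept 7 higher. The depth of each library is unknown, and replicates could not be left out.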

Other observations

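The relation of the myelin genes to each other within a table was looked at after their values had been seen. The Mbp to Cnp ratio at E18.5 was 0.782 times that at E13.5, whichever gene lengths are used. Per kilobase of merged exons Mbp stood below Cnp at E13.5 (103 against 118), but by the longest transcript above it (183 against 148). Mog, which encodes a glycoprotein of the outer myelin surface, had means of 192 at E13.5 and 297 at E18.5, a ratio of 1.88. The exons of Mog and Mbp overlap no other gene in the annotation used.

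Gfap, an intermediate filament gene of astrocytes, had a mean of 4.71 at E13.5 and 501 at E18.5, a ratio of 129.5 that was left out of the counts above because its mean was under 10 at E13.5.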
